A study of Mus musculus with 12 samples.

Results

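Gene expression in mouse embryonic fibroblasts (MEFs) was followed from day 0 to day 10 under 2 chemical combinations, named 6TCF and SGCF in the labels, and the change under one was compared with the change under the other. The quantity compared is the log2 change from day 0 to day 10 in the SGCF arm minus the same change in the 6TCF arm. It is called the difference here, and a positive value means that a gene ended further above, or less far below, its own start under SGCF than under 6TCF. The comparison uses 8 of the 12 arrays, 2 for each arm at day 0 and 2 at day 10, chosen by their sample titles. The 4 arrays of day 5 entered the normalization and the estimate of the spread. Of 12393 genes with a probe set of their own, 10674 passed a filter on low values and were tested, each through the probe set with its highest mean.

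The fibroblasts, cells of connective tissue, were taken from single embryos, grown in DMEM with fetal bovine serum and seeded. The next day they went into DMEM with a higher share of serum, GlutaMax, nonessential amino acids, β-mercaptoethanol and basic fibroblast growth factor (bFGF), and each arm then received 6TCF or SGCF. The title of the series places both combinations in a study of converting fibroblasts toward several lineages with chemicals. The sources used here do not give the components of the combinations, the strain or the age of the embryos. No array is labelled as an untreated culture at day 10, so the change of each arm also holds time in culture and medium. The labels do not say whether day 0 RNA was taken before the chemicals went on. Nor is it stated that replicate 1 and replicate 2 came from different embryos or cultures, so p-values measure the spread between these arrays, which may be technical.

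Fibroblasts build the extracellular matrix out of collagens, proteoglycans and the enzymes that crosslink them, and they divide in response to factors such as bFGF, which acts through ERK signalling. Cells that stop dividing lose transcripts of DNA replication and mitosis as a group, and cyclin-dependent kinase inhibitors hold them in arrest. Preparations from whole embryos are mixed and can carry macrophages of the embryo and mesothelial cells, the keratin-bearing lining of body cavities, beside the fibroblasts.

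The label MEF was checked against fibroblast genes. On every array the normalised values of Col1a2 and Vim stood at or above the 99.5th percentile of all genes and Col3a1 at or above the 98.7th, while Tcf21 and Pi16 reached as low as the 13.3rd and 22.4th. Median deposited intensity was 102.4 to 141 on the arrays of the 6TCF arm and 60.9 to 86.2 on those of the SGCF arm, so brightness of the array and arm cannot be told apart. Once quantile normalised, paired arrays from the same group had r = 0.985 to 0.997 across genes, which are not independent replicates, and so few arrays limit the precision. Values below are normalised levels, log2(intensity + 16), a scale that understates the change of dim genes, and errors are standard errors (SE) from limma.

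The difference was called, at an adjusted p under 0.05 in limma, for 2735 of 10674 genes (25.6%), of which 1309 were higher under SGCF (12.3%) and 1426 lower (13.4%). A difference of at least 2-fold was seen in 438 called genes that were higher (4.1%) and 601 that were lower (5.63%), together 9.73%. Among all genes tested the median difference was 0.01. Leaving out 6TCF day 0 replicate 2 gave 1456 genes, leaving out 6TCF day 10 replicate 1 gave 1480 and leaving out 6TCF day 0 replicate 1 gave 1673.

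The called genes fell into classes by what each arm did on its own. In 1083 of them a change from day 0 was called under 6TCF alone and in 771 under SGCF alone. Both arms changed in 1 direction in 298 genes with the larger change under 6TCF and in 239 with the larger change under SGCF. Both changed in opposite directions in 230 genes, and neither arm's own change was called in 114. For comparison, 4615 genes were called between day 10 and day 0 of 6TCF (43.2%) and 4143 of SGCF (38.8%).

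The arms also differed at day 0. There, 1860 genes were called between the SGCF and the 6TCF cultures (17.4%), and at day 10 the count was 2940 (27.5%). The day 10 count was 1520 and 1734 without 6TCF day 10 replicate 1 and 2, and 1733 and 1883 without SGCF day 10 replicate 1 and 2. The day 0 count rests strongly on single arrays: it was 389 without 6TCF day 0 replicate 2, 531 without 6TCF day 0 replicate 1, 937 without SGCF day 0 replicate 2 and 2998 without SGCF day 0 replicate 1. Of the 2735 genes with a called difference, 1334 were apart at day 10 alone and 630 at day 0 alone, where the arms had come to levels not called apart. In 320 the arms were apart at both days with their order turned, in 77 apart at both days in the same order, and in 374 apart at neither. A called difference therefore does not always mean that the arms ended at different levels. The levels at both days are given for many of the named genes. For the others only the change or the difference is given, which does not show whether the levels were apart.

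**Figure D1:**
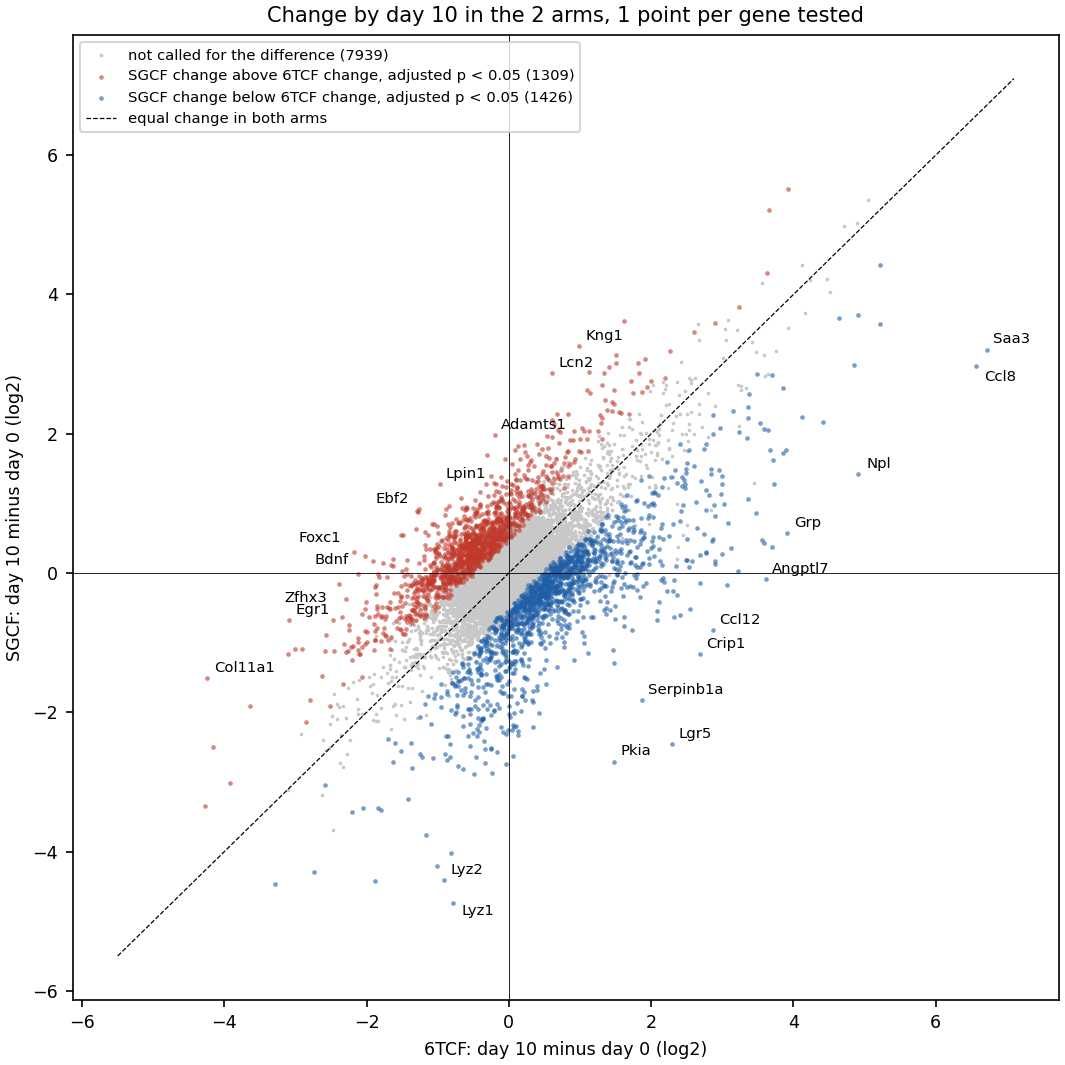
Each point is 1 of the 10674 genes, with the log2 change from day 0 to day 10 under 6TCF on the x axis and under SGCF on the y axis; red points (1309) and blue points (1426) are called for the difference, the dashed line marks equal change, and 22 of the 24 genes with the largest differences carry their names. Lgr5, Pkia, Crip1 and Serpinb1a lie in the quadrant of a rise under 6TCF and a fall under SGCF, and Saa3 and Ccl8 rose in both arms but more under 6TCF.

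The most negative difference belonged to Lgr5, a receptor for R-spondins that amplifies Wnt signalling. Under 6TCF its level was 6.18 and 5.74 at day 0 and 8.22 and 8.28 at day 10. Under SGCF it was 8.69 and 8.0 at day 0 and 5.83 and 5.95 at day 10. The arms changed places, since the higher arm at day 0 was the lower at day 10 and the arrays of the arms overlapped at neither day. The difference was -4.75 ± 0.31, a 26.9-fold gap between the changes (adjusted p = 7.32e-06, limma). Pkia, an inhibitor of protein kinase A, started alike in the arms, at 8.32 and 8.17 under 6TCF and 7.94 and 8.56 under SGCF. At day 10 it stood at 9.76 and 9.68 under 6TCF and at 5.41 and 5.67 under SGCF, a difference of -4.18 ± 0.27 (adjusted p = 7.32e-06, limma). It thus rose in one arm and fell in the other from overlapping starts.

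Serpinb1a and Crip1 likewise rose under 6TCF and fell under SGCF. For Serpinb1a, an inhibitor of neutrophil proteases, the 6TCF arrays went from 6.88 and 6.58 to 8.55 and 8.65 and the SGCF arrays from 7.33 and 7.77 to 5.63 and 5.81. Its difference was -3.70 ± 0.25 (adjusted p = 7.32e-06, limma). Crip1, a small LIM-domain protein, went from 9.54 and 9.22 to 12.10 and 12.03 under 6TCF and from 10.08 and 10.35 to 9.10 and 9.00 under SGCF (difference -3.84 ± 0.19, adjusted p = 1.15e-06, limma). In both genes the SGCF arrays were above all 6TCF arrays at day 0 and below all of them at day 10. Krt19, the fifth of the genes with the clearest opposite changes, is described with the mesothelial genes.

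A further set rose under 6TCF with little or no called change under SGCF. Angptl7, a secreted angiopoietin-like protein, was 6.28 and 6.44 at day 0 and 9.91 and 10.04 at day 10 of 6TCF, against 6.92 and 6.87 and then 6.68 and 6.92 under SGCF (difference -3.70 ± 0.17, adjusted p = 1.05e-06, limma). Grp, which encodes gastrin-releasing peptide, was near the bottom of the scale at both starts, 4.79 and 4.68 under 6TCF and 4.75 and 4.62 under SGCF. It reached 8.62 and 8.67 at day 10 of 6TCF and 5.50 and 5.03 at day 10 of SGCF (difference -3.34 ± 0.36, adjusted p = 0.000102, limma). Neither gene's own change under SGCF was called. Npl, an enzyme that breaks down sialic acid, rose in both arms, by 4.91 ± 0.18 under 6TCF and by 1.42 ± 0.18 under SGCF.

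The positive side was led by Col11a1, a minor fibrillar collagen chain of cartilage and embryonic matrix. Its arrays read 10.04 and 9.98 at day 0 and 5.58 and 5.96 at day 10 of 6TCF, and 9.50 and 8.78 and then 7.43 and 7.82 under SGCF. The gene fell in both arms and fell further under 6TCF (difference 2.72 ± 0.33, adjusted p = 0.000201, limma), and another probe set gave 2.74. Foxc1, a forkhead transcription factor of mesenchyme, went from 8.47 and 8.36 to 6.18 and 6.30 under 6TCF. Under SGCF it was 7.77 and 7.39 at the start and 7.81 and 7.94 at the end, a change that was not called. Its difference was 2.47 ± 0.21 (adjusted p = 2.12e-05, limma).

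The immediate early transcription factor gene Egr1, a direct target of ERK signalling, fell from 11.06 and 11.12 to 7.87 and 8.12 under 6TCF. Under SGCF it went from 11.47 and 10.62 to 10.33 and 10.40, so the arms overlapped at day 0 and not at day 10 (difference 2.42 ± 0.32, adjusted p = 0.000379, limma). Bdnf, a neurotrophin, fell from 9.83 and 10.01 to 7.97 and 7.82 under 6TCF and was 8.57 and 8.31 and then 8.67 and 8.70 under SGCF (difference 2.27 ± 0.29, adjusted p = 0.000261, limma). In these genes the larger part of the difference came from a fall in the 6TCF arm.

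Others rose mainly under SGCF. Lcn2, the iron-carrier-binding protein lipocalin 2, was 4.64 and 4.64 at day 0 of 6TCF and 5.24 and 5.24 at day 10. In the SGCF arm it was 4.78 and 4.92 and then 7.68 and 7.76 (difference 2.27 ± 0.16, adjusted p = 7.66e-06, limma). Kng1, a kininogen, went from 5.54 and 5.32 to 6.44 and 6.39 under 6TCF and from 5.10 and 5.08 to 8.15 and 8.54 under SGCF (difference 2.27 ± 0.24, adjusted p = 9.51e-05, limma), although another of its probe sets gave 0.88. Adamts1, a protease that cleaves proteoglycans, was 9.75 and 9.85 and then 9.69 and 9.52 under 6TCF, and 9.99 and 9.20 and then 11.61 and 11.55 under SGCF. Its change was called under SGCF alone. Lpin1, an enzyme of triglyceride synthesis, fell by 0.98 ± 0.16 under 6TCF and rose by 1.28 ± 0.16 under SGCF, and Ebf2, a transcription factor of brown fat precursors, and the natriuretic peptide receptor gene Npr2 did likewise.

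**Figure D2:**
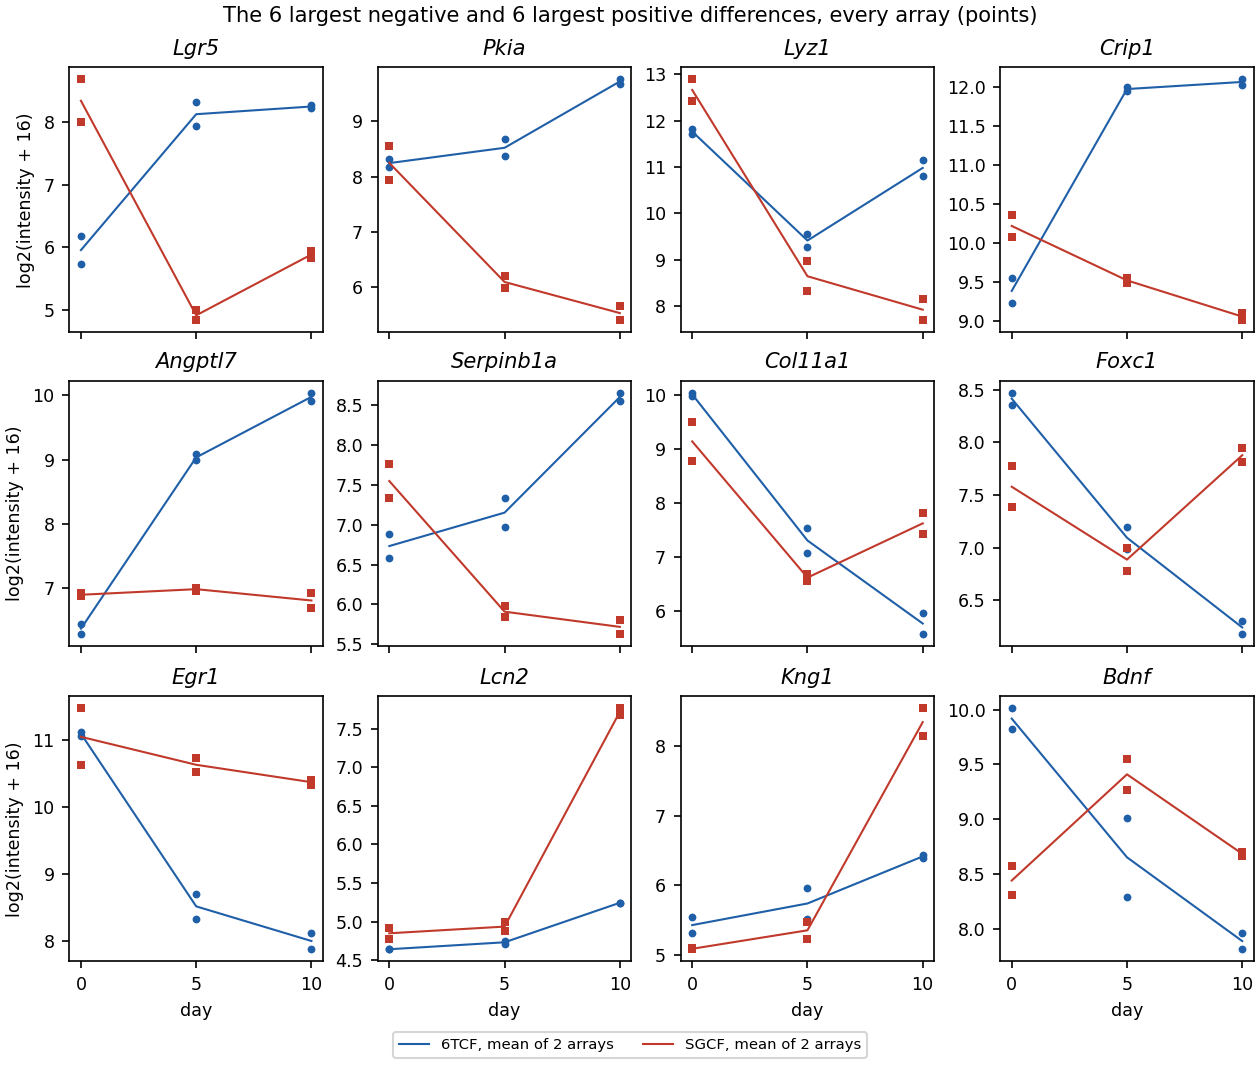
Normalised level, log2(intensity + 16), on the y axis against day 0, 5 and 10 on the x axis for the 6 genes with the most negative and the 6 with the most positive difference; blue circles are the 2 arrays of each 6TCF group, red squares those of each SGCF group, and lines join group means. The lines cross for Lgr5, Crip1, Angptl7, Serpinb1a, Lyz1, Col11a1, Foxc1, Kng1 and Bdnf, while Pkia and Egr1 leave a shared start.

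Gene groups were read through 35 lists with 621 genes tested. The share of members called stands beside the share among all genes, 12.3% higher and 13.4% lower, and a list near those shares is no result about its members. For the change of each arm on its own the shares among all genes were 23.2% up and 20% down under 6TCF and 20.6% up and 18.3% down under SGCF. Between the arms, 8.67% of all genes were higher and 8.76% lower in SGCF at day 0, and 14.1% were lower at day 10. Where no normalization was applied between arrays the median difference of all genes moved to -0.22, and list counts on the higher side mostly fell. The counts without it are given beside many of the lists that moved, but not all. Among the others, they were 1 higher and 9 lower for the Wnt list and 2 and 5 for the cardiac list. For the NRF2 list they were 4 and 2, and for the ATF4 list none and 10. Where a list had 1 member called in a direction, that call was lost without at least 1 array for Adcy7, Spint1, Des, Hoxa10, Slc7a11 and Rarb. List members named here outside the naming rule given with the processing were chosen after their values were seen.

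**Figure D3:**
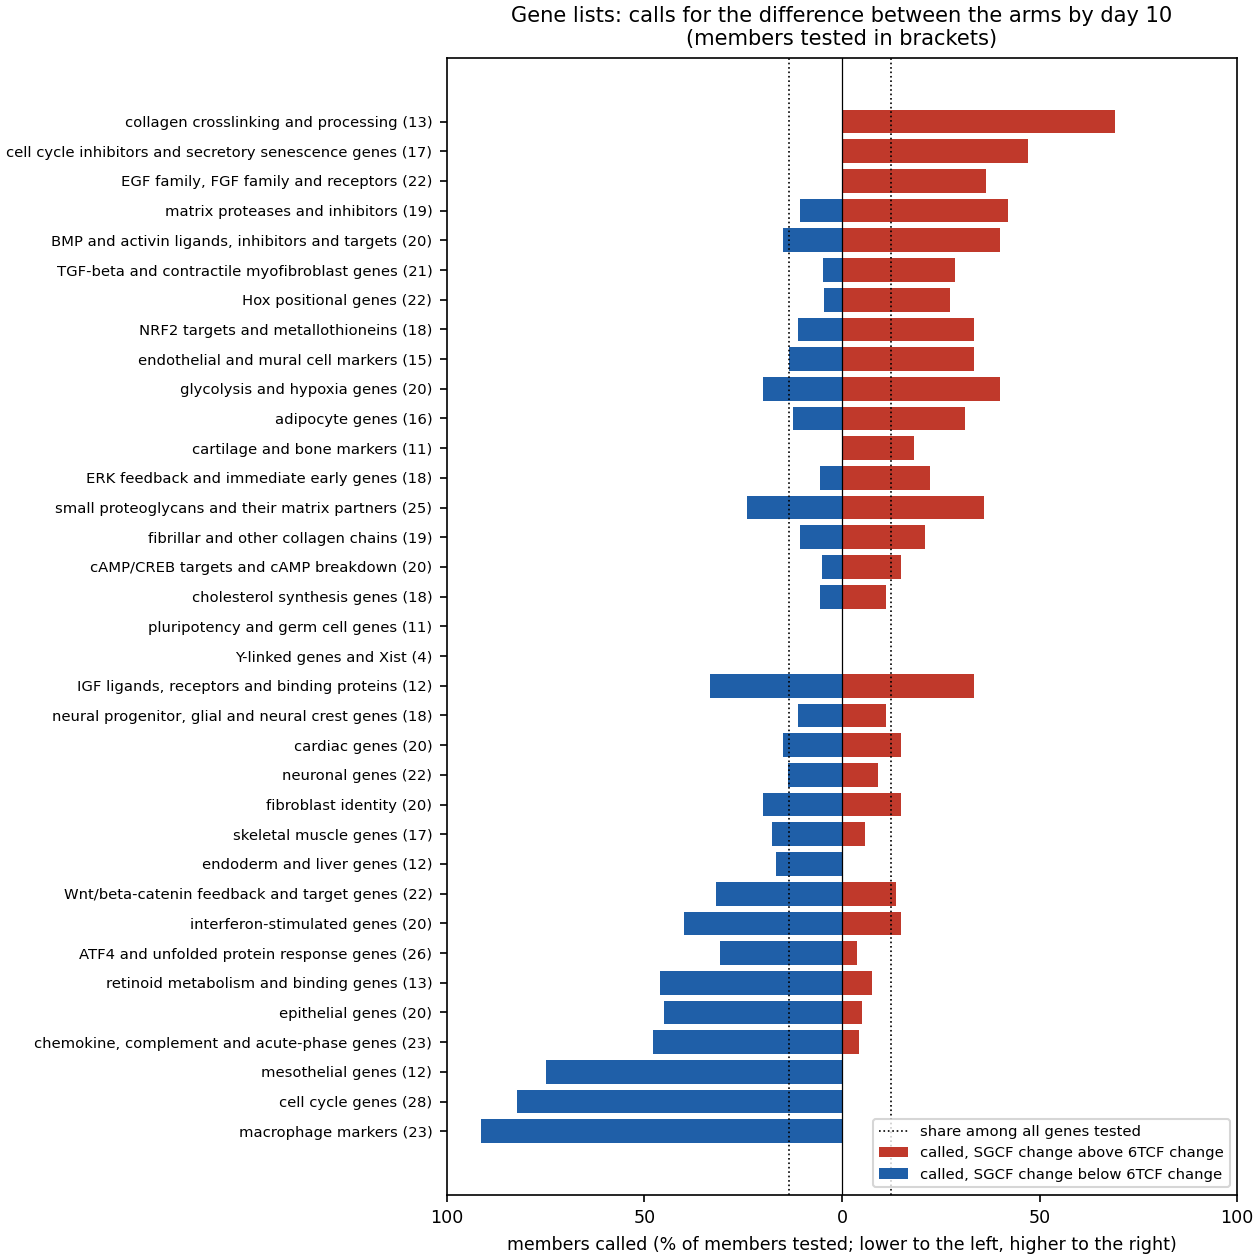
Share of the tested members of each of 35 lists called for the difference, in percent of members tested, with members called higher under SGCF in red to the right and called lower in blue to the left; the number tested stands in brackets and dotted lines mark the shares among all genes (12.3% and 13.4%). Macrophage markers, cell cycle genes and mesothelial genes reach furthest to the left and collagen crosslinking and processing furthest to the right.

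Genes of DNA replication and mitosis fell further under SGCF. Of 28 tested, 23 were called lower and none higher, the other 5 were not called, and the median difference was -1.44. Under SGCF 26 of the 28 fell and under 6TCF 12 did. The called counts ranged from 20 to 24 over the fits that left out 1 array each. At day 0, 9 of the 28 were higher in the SGCF cultures, and at day 10, 22 were lower. Where members were called between the arms, the SGCF cultures were thus the higher at day 0 and the lower at day 10.

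Single genes show the pattern. Birc5, the mitotic inhibitor of apoptosis survivin, read 9.84 and 9.79 at day 0 and 9.56 and 9.56 at day 10 of 6TCF, and 10.43 and 10.60 and then 8.32 and 7.67 under SGCF (difference -2.26 ± 0.25, adjusted p = 0.000124, limma). Ccnb2, the mitotic cyclin B2, was 9.50 and 9.39 and then 9.59 and 9.63 under 6TCF and went from 10.02 and 10.18 to 8.57 and 7.68 under SGCF (difference -2.14 ± 0.30). Ccne2, cyclin E2, which acts at entry into S phase, held 8.24 and 8.46 and then 8.42 and 8.10 under 6TCF and fell from 9.02 and 9.61 to 7.15 and 6.92 under SGCF (difference -2.19 ± 0.28). For all 3 genes the SGCF arrays were above the 6TCF arrays at day 0 and below them at day 10. Aurkb, a mitotic kinase, fell by 2.21 ± 0.17 under SGCF, while its change of -0.11 ± 0.17 under 6TCF was not called. Cdk1, the kinase that drives mitosis, was 9.82 and 9.86 and then 9.90 and 9.91 under 6TCF and fell from 10.66 and 11.04 to 9.32 and 9.05 under SGCF. Mcm6, a subunit of the replicative helicase, and Cdc20, an activator of the anaphase-promoting complex, fell in both arms, with differences of -0.91 ± 0.19 and -1.41 ± 0.26. Mki67, Mcm4, Cdt1, E2f1 and Foxm1 were the members not called, with differences from -0.79 for Mki67 to -0.01 for Foxm1.

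Promoter windows are shown for these cell cycle genes because so many members moved together. RefSeq sequences of assembly GRCm38.p6, from 250 bases before to 50 after the start, were found for 20 of the 23 called genes. They were searched on both strands for the CCAAT box (CCAAT), the cell cycle homology region or CHR (TTTGAA) and an E2F site (TTTNGCGC), with 1 overlap between matches of different motifs. The CCAAT box was present in 17 of 20 (85%), against 38.1% of the 8565 promoters found for genes tested and 37.9% of 27025 promoters of all genes. The CHR was in 10 (50%), against 11.9% and 18.1%, and the E2F site in 5 (25%), against 2.43% and 1.38%. All 10 windows with a CHR also held a CCAAT box. The windows of Birc5, Cdc6 and Ccne1 held none of the 3 motifs. Members of the list that were not called were not compared, so these shares cannot be tied to the calls. A match describes the letters of the window and is neither a site nor a cause, and no binding was measured. The 4 windows below are all on the minus strand and run 5′ to 3′ with motif matches in capitals: Ccnb2 (chr9:70421505-70421804) and Cdc20 (chr4:118437294-118437593) hold CCAAT boxes and the CHR, Cdk1 (chr10:69352863-69353162) holds all 3 motifs, and Mcm6 (chr1:128359656-128359955) holds CCAAT boxes and E2F sites.
Ccnb2: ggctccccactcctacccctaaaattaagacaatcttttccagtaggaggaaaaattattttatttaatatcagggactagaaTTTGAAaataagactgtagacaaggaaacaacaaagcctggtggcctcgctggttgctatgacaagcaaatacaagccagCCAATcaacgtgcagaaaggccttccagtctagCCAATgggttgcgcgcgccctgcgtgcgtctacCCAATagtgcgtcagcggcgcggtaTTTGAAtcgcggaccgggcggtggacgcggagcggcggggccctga
Cdc20: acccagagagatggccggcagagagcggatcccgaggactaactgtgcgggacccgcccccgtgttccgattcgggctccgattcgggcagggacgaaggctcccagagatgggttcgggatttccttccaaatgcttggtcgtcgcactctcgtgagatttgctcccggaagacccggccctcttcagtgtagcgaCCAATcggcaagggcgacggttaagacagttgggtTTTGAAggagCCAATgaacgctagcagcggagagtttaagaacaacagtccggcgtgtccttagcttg
Cdk1: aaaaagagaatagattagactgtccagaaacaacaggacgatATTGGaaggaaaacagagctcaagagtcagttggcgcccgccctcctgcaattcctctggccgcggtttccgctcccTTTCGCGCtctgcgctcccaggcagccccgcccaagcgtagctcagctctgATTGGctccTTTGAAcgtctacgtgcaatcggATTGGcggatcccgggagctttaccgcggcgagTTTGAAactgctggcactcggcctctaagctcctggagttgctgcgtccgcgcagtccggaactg
Mcm6: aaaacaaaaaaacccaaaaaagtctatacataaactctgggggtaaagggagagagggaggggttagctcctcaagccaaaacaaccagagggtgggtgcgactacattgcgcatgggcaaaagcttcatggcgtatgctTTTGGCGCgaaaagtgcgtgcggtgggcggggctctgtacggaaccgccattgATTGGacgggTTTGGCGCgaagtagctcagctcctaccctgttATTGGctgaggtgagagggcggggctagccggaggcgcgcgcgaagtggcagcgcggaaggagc

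Inhibitors of the cell cycle and secreted factors linked to senescence went the other way. Of 17 tested, 8 were called higher under SGCF and none lower, with a median of 0.42; 8 were higher and 1 lower at an unadjusted p under 0.05, and limma with an intensity trend called 7 and 1. Cdkn1c, the kinase inhibitor p57, was 9.53 and 9.49 and then 10.75 and 10.88 under 6TCF and went from 9.66 and 9.51 to 12.32 and 12.24 under SGCF (difference 1.39 ± 0.16, adjusted p = 0.000141, limma). It rose in both arms from overlapping levels. Cdkn1a, the inhibitor p21, differed by 0.95 ± 0.22 and Cdkn2a, the locus of p16 and Arf, by 0.73 ± 0.19. Csf1, the growth factor of macrophages, fell by 1.15 ± 0.18 under 6TCF, and its change of -0.14 ± 0.18 under SGCF was not called, but its difference of 1.01 ± 0.26 was lost in 3 of 19 alternative fits. The higher count was 4 without 6TCF day 0 replicate 1, 6TCF day 10 replicate 1 or SGCF day 10 replicate 1, and 5 without 6TCF day 0 replicate 2, 6TCF day 10 replicate 2 or SGCF day 10 replicate 2. With no normalization between arrays it was 1 higher and 1 lower.

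**Figure D4:**
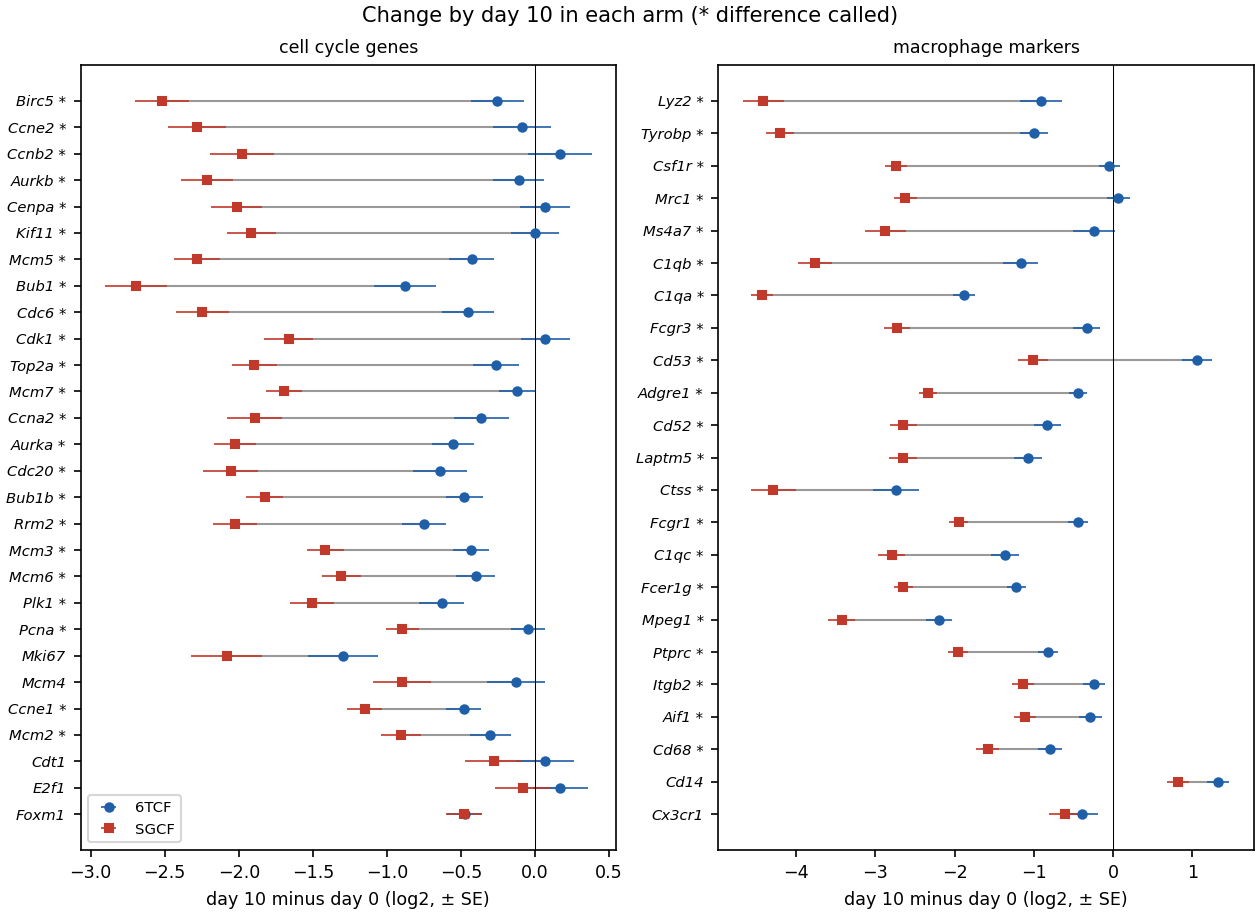
Log2 change from day 0 to day 10 (x axis, bars are SE) of each tested cell cycle gene (left, 28 genes) and macrophage marker (right, 23 genes), with blue circles for 6TCF, red squares for SGCF and an asterisk where the difference was called. In both panels nearly every red square lies to the left of its blue circle, and 23 of 28 and 21 of 23 genes carry an asterisk.

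Macrophage markers were the most one-sided list. Of 23 tested, 21 were called lower under SGCF and none higher, with a median difference of -1.58, and 19 to 21 were called lower with any 1 array left out. Their summed intensity fell from 9494 and 10622 at day 0 of SGCF to 1028 and 1133 at day 10. In the 6TCF arm it was 4385 and 4230 at day 0 and 2563 and 2397 at day 10. At day 0, 21 of the 23 were higher in the SGCF cultures than in the 6TCF cultures, and at day 10, 13 were lower. The SGCF cultures thus began with a higher and ended with a lower signal of these genes, and the RNA of a whole culture cannot tell fewer cells of a type from less RNA per cell.

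Csf1r, the receptor for the growth factor of macrophages, read 8.10 and 8.17 and then 8.21 and 7.96 under 6TCF, and 9.52 and 9.21 and then 6.66 and 6.58 under SGCF (difference -2.69 ± 0.19, adjusted p = 7.74e-06, limma). The signalling adaptor Tyrobp fell from 7.61 and 7.64 to 6.50 and 6.75 under 6TCF and from 9.16 and 9.33 to 4.92 and 5.16 under SGCF (difference -3.20 ± 0.25, adjusted p = 1.06e-05, limma). Mrc1, the mannose receptor, was 6.60 and 6.39 and then 6.53 and 6.59 under 6TCF and fell from 7.96 and 7.63 to 5.06 and 5.30 under SGCF (difference -2.69 ± 0.20). C1qa, a chain of complement C1q, fell to 5.54 and 5.62 at day 10 of 6TCF and to 4.84 and 4.95 at day 10 of SGCF. For Csf1r and Mrc1 no change was called under 6TCF at all, whereas every one of these 4 genes fell under SGCF.

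The lysozyme genes Lyz1 and Lyz2 were among the 12 most negative differences. Lyz2 stands in the macrophage list and Lyz1 does not, and they are near-identical copies whose probes may share transcripts. Lyz2 was 10.60 and 10.47 and then 9.69 and 9.55 under 6TCF, and 11.45 and 11.92 and then 6.88 and 7.66 under SGCF, a fall in both arms. Lyz1 differed by -3.95 ± 0.33, and 1 of its 2 other probe sets had the opposite sign. Cd14 and Cx3cr1 were the markers not called, at -0.51 and -0.22.

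Chemokines were called lower under SGCF too, but here the larger changes were rises under 6TCF. Of 23 chemokine, complement and acute-phase genes, 11 were called lower under SGCF and 1 higher, and the median was -0.67. Under 6TCF 15 of the 23 rose and under SGCF 11 did. In level, 12 of the 23 were higher and 1 lower in SGCF at day 0, and 7 were higher and 7 lower at day 10. Ccl8, a chemokine that attracts monocytes, went from 5.42 and 5.60 to 12.06 and 12.10 under 6TCF and from 6.51 and 7.00 to 9.53 and 9.94 under SGCF. It rose in both arms, and the 6TCF arrays passed from below the SGCF arrays to above them (difference -3.59 ± 0.32, adjusted p = 2.45e-05, limma). Saa3, an acute-phase serum amyloid, rose from 6.19 and 5.68 to 12.72 and 12.58 under 6TCF and from 7.86 and 8.45 to 11.02 and 11.71 under SGCF (difference -3.51 ± 0.35, adjusted p = 5.91e-05, limma). Ccl11, the eosinophil attractant eotaxin, rose by 3.12 ± 0.14 under 6TCF, and its change of 0.35 ± 0.14 under SGCF was not called. Cxcl13, an attractant of B cells, was 5.42 and 5.76 and then 8.56 and 8.60 under 6TCF and 5.34 and 5.67 and then 5.75 and 5.81 under SGCF. Ccl12, outside the list but among the leading genes, rose by 2.87 ± 0.21 under 6TCF and fell by 0.82 ± 0.21 under SGCF. The complement genes C1s1, C1ra and Serping1 were not called, with differences of 0.29 to 0.67, and Lcn2 was the 1 member called higher, against 3 without SGCF day 0 replicate 1 or SGCF day 10 replicate 1. Macrophages also make several chemokines; the part of the macrophage signal, which at day 0 was higher in SGCF, in these differences was not tested.

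Interferon-stimulated genes were called in both directions. Of 20 tested, 8 were called lower and 3 higher, with a median of -0.52. In level, 8 of the 20 were higher and none lower in SGCF at day 0, and 6 were higher and 4 lower at day 10. Gbp2, an interferon-induced GTPase, rose from 6.84 and 6.70 to 10.13 and 10.87 under 6TCF and from 6.90 and 7.30 to 8.20 and 8.56 under SGCF (difference -2.45 ± 0.36, adjusted p = 0.000656, limma). Bst2, the virus-tethering protein tetherin, rose by 1.62 ± 0.15 under 6TCF and fell by 0.63 ± 0.15 under SGCF. The 3 called higher all serve antigen presentation by MHC class I. The light chain B2m went from 12.19 and 12.08 to 11.56 and 11.81 under 6TCF and from 12.48 and 11.99 to 13.22 and 13.10 under SGCF. H2-K1 and H2-D1 differed by 1.51 ± 0.22 and 1.75 ± 0.19, but class I genes are close copies, and 3 of the 8 other probe sets of H2-D1 and 1 of the 3 of H2-K1 had the opposite sign. The lower count was 4 without 6TCF day 10 replicate 1 and 5 without 6TCF day 0 replicate 2, 6TCF day 10 replicate 2 or SGCF day 10 replicate 1.

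Most mesothelial genes rose under 6TCF, and few did under SGCF. Of 12 tested, 9 were called lower under SGCF and none higher, with a median of -1.34, and 8 or 9 were called with any 1 array left out. Under 6TCF 10 of the 12 rose, and under SGCF 3 rose and 4 fell. Krt19, a keratin of simple epithelia and mesothelium, went from 8.45 and 8.27 to 9.71 and 9.97 under 6TCF and from 7.84 and 7.73 to 6.44 and 6.54 under SGCF (difference -2.78 ± 0.20, adjusted p = 7.9e-06, limma). Krt8 was 7.39 and 7.48 and then 9.64 and 9.84 under 6TCF, and 6.62 and 6.67 and then 5.98 and 6.80 under SGCF (difference -2.57 ± 0.37, adjusted p = 0.000643, limma). Wt1, the transcription factor that marks mesothelium, rose from 6.89 and 6.93 to 9.87 and 9.72 under 6TCF and from 5.73 and 5.14 to 6.34 and 6.50 under SGCF (difference -1.90 ± 0.26, adjusted p = 0.00045, limma). Wt1 thus rose in both arms, by more under 6TCF, and its SGCF arrays at day 10 were still below the 6TCF arrays of day 0. At day 0, 9 of the 12 were already lower in the SGCF cultures, and at day 10, 11 were. Msln, the surface protein mesothelin, fell in both arms, by 2.12 ± 0.14 under 6TCF and by 2.03 ± 0.14 under SGCF, and its difference of 0.09 was not called.

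Epithelial genes shared the keratins with that list, since Krt7, Krt8, Krt18 and Krt19 stand in both. Of 20 tested, 9 were called lower and 1 higher, with a median of -0.65. Epcam, the adhesion molecule of epithelia, was 5.10 and 5.29 and then 7.17 and 7.00 under 6TCF, and 5.18 and 5.51 and then 5.26 and 5.07 under SGCF (difference -2.07 ± 0.30, adjusted p = 0.000661, limma). Pkp2, a desmosomal plaque protein, differed by -1.34, although 2 of its 3 other probe sets had the opposite sign, and the tight junction genes Cldn1 and Ocln by -1.04 and -0.87. Krt5 and Krt14, keratins of basal epithelium, were not called, at -0.70 and -0.26, and neither was Cldn4 at 0.57. Spint1, a protease inhibitor, was the member called higher, and limma with an intensity trend did not call any member higher.

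Retinoid genes followed the same direction. Of 13 tested, 6 were called lower under SGCF and 1 higher, with a median of -0.56, and 12 of the 13 rose under 6TCF against 8 under SGCF. Cyp26a1, which degrades retinoic acid and is induced by it, was 5.15 and 5.01 and then 7.55 and 7.69 under 6TCF, and stayed at 5.01 and 5.04 and then 5.01 and 5.21 under SGCF (difference -2.46 ± 0.19, adjusted p = 1.06e-05, limma). Rdh10, which makes retinal from retinol, went from 8.39 and 8.60 to 11.40 and 11.38 under 6TCF and from 8.98 and 9.00 to 9.72 and 9.90 under SGCF (difference -2.08 ± 0.17, adjusted p = 1.2e-05, limma). Aldh1a2, the enzyme that makes retinoic acid in mesoderm and a member of the mesothelial list too, rose by 1.46 ± 0.12 under 6TCF, and its change of 0.23 ± 0.12 under SGCF was not called. Rarb, a retinoic acid receptor and itself a retinoid target, was called higher under SGCF, at 0.60 ± 0.17. The lower count was 3 without 6TCF day 0 replicate 2 or SGCF day 10 replicate 2.

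**Figure D5:**
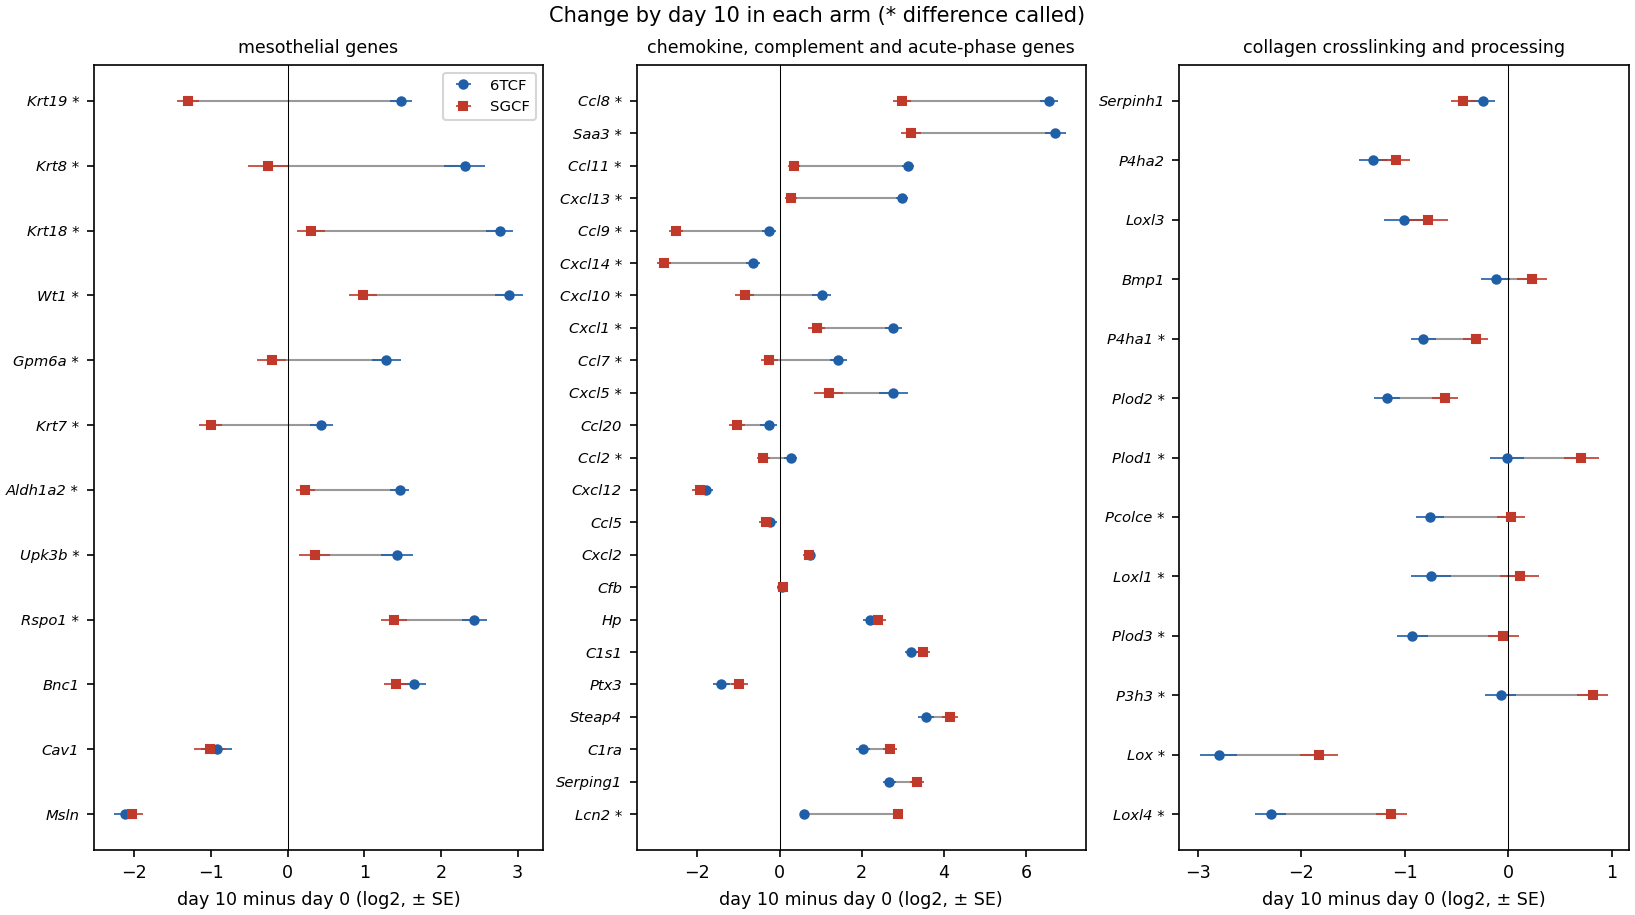
Log2 change from day 0 to day 10 (x axis, bars are SE) of each tested mesothelial gene (left), chemokine, complement and acute-phase gene (middle) and collagen crosslinking and processing gene (right), with blue circles for 6TCF, red squares for SGCF and an asterisk where the difference was called. Red squares lie left of blue circles for all 9 called mesothelial genes and for 11 of the 12 called genes in the middle panel, and right of them for all 9 called genes of the right panel.

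Enzymes that crosslink and process collagen fell under 6TCF and less so under SGCF. Of 13 tested, 9 were called higher under SGCF and none lower, with a median of 0.72, and 9 fell under 6TCF against 6 under SGCF. The lysyl oxidase gene Lox went from 13.08 and 13.15 to 10.30 and 10.33 under 6TCF and from 13.24 and 12.83 to 10.92 and 11.49 under SGCF (difference 0.97 ± 0.26, adjusted p = 0.0187, limma). Plod3, a lysyl hydroxylase, fell from 9.53 and 9.35 to 8.53 and 8.50 under 6TCF, while its change under SGCF, from 9.48 and 9.07 to 9.26 and 9.19, was not called. Loxl4, a further lysyl oxidase, differed by 1.16 ± 0.21, but its other probe set gave -0.03. The list is small and its calls are close to the threshold: without 6TCF day 0 replicate 1 it had 2 called, without 6TCF day 10 replicate 1 it had 3, without 6TCF day 0 replicate 2 or SGCF day 0 replicate 2 it had 4, without 6TCF day 10 replicate 2 or either SGCF day 10 array it had 5, and without SGCF day 0 replicate 1 it had 10. Median scaling of the arrays gave 4 and no normalization between arrays gave 1, all higher.

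The collagens themselves and the proteoglycans were divided, without a common direction. Of 19 collagen chains 4 were called higher and 2 lower, or 2 and 3 with no normalization between arrays. Col8a1, a short-chain collagen, fell by 4.17 ± 0.16 under 6TCF and by 2.49 ± 0.16 under SGCF, though its other probe set gave a difference of 0.13. Col6a2, a chain of microfibrillar collagen VI, rose from 10.25 and 9.93 to 11.86 and 12.04 under 6TCF and was 11.86 and 11.23 and then 12.20 and 11.85 under SGCF, so that the arms were apart at day 0 and overlapped at day 10. Col5a1, a collagen of thin fibrils, differed by 1.19 ± 0.31, a call lost in 6 of 19 alternative fits. Without SGCF day 0 replicate 1, 8 collagens were called higher, and without 6TCF day 0 replicate 1 or 2, 6TCF day 10 replicate 1 or SGCF day 10 replicate 1, 2 were. The lower count was 1 without 6TCF day 0 replicate 2.

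Among 25 proteoglycans and matrix partners, 9 were called higher and 6 lower, or 5 and 8 with no normalization between arrays. Without 6TCF day 10 replicate 1 the counts were 3 higher and 5 lower, and without 6TCF day 0 replicate 1 they were 5 and 5. Fmod, fibromodulin, which regulates collagen fibrils, was 8.02 and 7.95 and then 7.11 and 7.22 under 6TCF and fell from 9.48 and 8.84 to 5.21 and 5.07 under SGCF (difference -3.20 ± 0.29, adjusted p = 3.04e-05, limma). Lum, lumican, rose in both arms, by 5.22 ± 0.15 under 6TCF and by 3.58 ± 0.15 under SGCF, from starts of 7.48 and 7.14 against 9.71 and 9.33. The ends, 12.56 and 12.50 against 13.08 and 13.13, were closer than the starts. Tnc, tenascin C, an adhesion-modulating matrix protein, fell by 1.91 ± 0.22 under 6TCF, and its change of 0.17 ± 0.22 under SGCF was not called (difference 2.08 ± 0.31, adjusted p = 0.000859, limma). Thbs1, thrombospondin 1, fell by 2.92 ± 0.20 under 6TCF and by 1.10 ± 0.20 under SGCF.

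Of 19 matrix proteases and inhibitors 8 were called higher and 2 lower, or 1 and 2 with no normalization between arrays. Mmp2, a gelatinase, rose in both arms and by 0.92 more under SGCF, whereas Mmp3, stromelysin, rose by 5.21 under 6TCF and 4.42 under SGCF. Mmp14, the membrane protease that activates Mmp2, was 12.23 and 12.14 and then 11.94 and 12.10 under 6TCF, and 12.10 and 11.52 and then 12.74 and 12.79 under SGCF. Without 6TCF day 0 replicate 1 or SGCF day 10 replicate 2, 5 were called higher and 1 lower. The lower count was also 1 without 6TCF day 0 replicate 2, either 6TCF day 10 array or SGCF day 0 replicate 2.

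Among 21 TGF-beta and contractile genes 6 were called higher and 1 lower, or 2 and 1 with no normalization between arrays. Most fell in both arms, 16 under 6TCF and 15 under SGCF. Tgfb2, a TGF-beta ligand, rose from 9.29 and 9.31 to 10.72 and 10.69 under 6TCF and from 8.66 and 8.63 to 11.51 and 11.71 under SGCF (difference 1.56 ± 0.20, adjusted p = 0.000327, limma). The latent TGF-beta binding protein gene Ltbp1 fell by 1.45 ± 0.12 under 6TCF, and its change of 0.06 ± 0.12 under SGCF was not called. Its relative Ltbp2 fell by 1.45 ± 0.13 under SGCF, and its change of -0.14 ± 0.13 under 6TCF was not called.

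Growth factors and receptors of the EGF and FGF families were called in 1 direction. Of 22 tested, 8 were higher under SGCF and none lower; at an unadjusted p under 0.05 the counts were 9 and 1, and limma with an intensity trend called 8 and none. Leaving out 1 array each gave list medians from 0.17 to 0.30. In level, 1 of the 22 was higher and 5 lower in SGCF at day 0, and 5 were higher and 2 lower at day 10. Hbegf, a ligand of the EGF receptor, fell from 10.33 and 10.51 to 6.77 and 6.79 under 6TCF and from 9.45 and 9.11 to 7.44 and 7.31 under SGCF (difference 1.73 ± 0.34, adjusted p = 0.00398, limma). Fgf7, keratinocyte growth factor, fell from 8.55 and 8.51 to 6.67 and 6.64 under 6TCF and was 8.75 and 8.64 and then 8.42 and 8.35 under SGCF (difference 1.57 ± 0.16, adjusted p = 7.63e-05, limma). Among receptors, Egfr, Erbb2 and Fgfr1 differed by 1.00, 1.01 and 1.02. The median of the list was 0.23, with 14 members not called, and 1 of the 4 other probe sets of Egfr had the opposite sign. With no normalization between arrays 5 were called higher.

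Early targets of ERK signalling did not share a direction. Of 18 tested, 4 were called higher and 1 lower. Beside Egr1, described above, Egr2, a related zinc finger factor, went from 6.62 and 6.25 to 6.90 and 7.46 under 6TCF and from 6.73 and 6.93 to 5.94 and 5.88 under SGCF (difference -1.67 ± 0.25, adjusted p = 0.000859, limma). The higher count was 1 without 6TCF day 10 replicate 1, 2 without 6TCF day 0 replicate 2 or SGCF day 10 replicate 1, and 7 without SGCF day 0 replicate 1, and with no normalization between arrays it was 1. Among 20 cAMP targets and phosphodiesterases 3 were called higher and 1 lower, or 1 and none with no normalization between arrays, and 5 were higher without SGCF day 0 replicate 1 or SGCF day 10 replicate 1. The nuclear receptor gene Nr4a2, induced by cAMP, fell by 0.89 ± 0.14 under 6TCF and rose by 0.92 ± 0.14 under SGCF. Dio2, which activates thyroid hormone, rose by 3.92 ± 0.17 and 5.52 ± 0.17, but 1 of its 2 other probe sets had a difference of the opposite sign.

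Wnt pathway genes rose in both arms, 14 of 22 under 6TCF and 13 under SGCF. For the difference 7 were called lower under SGCF and 3 higher, with a median of -0.24. The secreted inhibitor gene Notum, a feedback target, rose from 5.94 and 6.07 to 8.74 and 8.97 under 6TCF and from 6.25 and 6.50 to 7.91 and 7.67 under SGCF (difference -1.43 ± 0.20, adjusted p = 0.00058, limma). Sp5, a transcription factor and direct target, went from 5.08 and 4.90 to 7.68 and 7.71 and from 5.22 and 5.28 to 6.54 and 6.61 (difference -1.38 ± 0.20, adjusted p = 0.000671, limma). Dkk1, an inhibitor of Wnt receptors, rose by 1.49 ± 0.17 under 6TCF and fell by 0.66 ± 0.17 under SGCF. The receptors Fzd1 and Fzd2 were called higher, at 1.12 and 1.24.

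Of 20 BMP and activin genes 8 were called higher and 3 lower, or 4 and 3 with no normalization between arrays. Bmp2, a bone morphogenetic ligand, rose from 6.16 and 6.15 to 9.67 and 9.96 under 6TCF and from 5.73 and 4.75 to 10.56 and 10.34 under SGCF (difference 1.55 ± 0.36, adjusted p = 0.0101, limma). Its extracellular inhibitor Grem1 was 10.71 and 10.68 and then 10.83 and 11.06 under 6TCF and rose from 10.23 and 9.99 to 11.95 and 11.62 under SGCF (difference 1.43 ± 0.21). Fst, the activin inhibitor follistatin, fell by 1.18 ± 0.18 under 6TCF and rose by 0.59 ± 0.18 under SGCF, and its levels, apart at day 0, overlapped at day 10. A ligand and inhibitors of the same pathway were therefore called in the same direction.

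Insulin-like growth factor genes were called in both directions. Of 12 tested, 4 were called higher and 4 lower, or 2 and 4 with no normalization between arrays and also without 6TCF day 0 replicate 2, 6TCF day 10 replicate 1 or SGCF day 10 replicate 2. The lower ones were the ligand Igf1 and the binding proteins Igfbp2, Igfbp5 and Igfbp6, and the higher ones the receptors Igf1r and Igf2r and the adaptors Irs1 and Irs2. Igf2, Igfbp3, Igfbp4 and Igfbp7 were not called. Igfbp6 rose from 9.47 and 9.27 to 10.67 and 10.76 under 6TCF and fell from 9.36 and 9.44 to 8.74 and 8.98 under SGCF (difference -1.88 ± 0.20, adjusted p = 8.81e-05, limma). Igfbp2 was 9.45 and 9.21 and then 11.06 and 11.20 under 6TCF, and 9.32 and 9.23 and then 9.14 and 9.59 under SGCF. Igf2r, which clears Igf2, was 10.93 and 11.00 and then 10.62 and 10.80 under 6TCF and 10.72 and 9.83 and then 11.68 and 11.66 under SGCF (difference 1.65 ± 0.33, adjusted p = 0.00454, limma).

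Enzymes of serine synthesis led the amino acid and stress genes. Of 26 ATF4 and unfolded protein response genes 8 were called lower and 1 higher, with a median of -0.38. Phgdh, the first enzyme of serine synthesis, was 12.04 and 11.96 and then 11.32 and 11.25 under 6TCF and fell from 12.16 and 12.20 to 9.36 and 9.48 under SGCF (difference -2.05 ± 0.18, adjusted p = 2.5e-05, limma). The next enzymes Psat1 and Psph differed by -1.77 ± 0.18 and -1.64 ± 0.20, and all 3 fell under SGCF. Atf4, Ddit3 and the chaperone gene Hspa5 were not called, at -0.42, -0.24 and -0.26. Slc7a11, the cystine transporter, was called higher, at 0.84 ± 0.23. Without 6TCF day 10 replicate 1 the counts were 5 lower and none higher.

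Among 18 NRF2 targets and metallothioneins 6 were called higher and 2 lower. Hmox1, heme oxygenase 1, was 8.93 and 8.65 and then 8.49 and 8.48 under 6TCF and rose from 8.60 and 8.15 to 9.98 and 10.17 under SGCF (difference 2.01 ± 0.23, adjusted p = 0.000151, limma). Gclc, the rate-limiting enzyme of glutathione synthesis, fell by 0.60 ± 0.11 under 6TCF and rose by 0.95 ± 0.11 under SGCF, and the sulfiredoxin gene Srxn1 did likewise. Gstt1, a glutathione transferase, and the metallothionein gene Mt2 were the 2 called lower.

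Glycolysis and hypoxia genes also split. Of 20 tested, 8 were called higher and 4 lower, or 5 and 3 without 6TCF day 10 replicate 1 or SGCF day 10 replicate 2. Hk2, a hexokinase, fell from 9.07 and 9.23 to 7.57 and 7.70 under 6TCF and was 8.44 and 7.82 and then 8.79 and 8.55 under SGCF (difference 2.06 ± 0.29, adjusted p = 0.00051, limma). The glucose transporter gene Slc2a1 fell by 1.02 ± 0.15 under 6TCF and rose by 0.68 ± 0.15 under SGCF, and Hk1 and Pfkfb3 differed by 1.45 and 1.42. Egln3, the oxygen sensor that is itself induced by hypoxia, rose from 7.38 and 7.44 to 9.70 and 9.76 under 6TCF and was 7.15 and 6.95 and then 6.73 and 7.18 under SGCF (difference -2.41 ± 0.21, adjusted p = 2.06e-05, limma). Aldoc, an aldolase, rose in both arms, with a difference of -2.01. Car9 and Ndrg1, further hypoxia targets, were called lower too, at -1.03 and -0.70, and 1 of the 4 other probe sets of Ndrg1 had the opposite sign. With no normalization between arrays the counts were 5 higher and 4 lower. Of 18 cholesterol synthesis genes 2 were called higher and 1 lower, or none and 1 with no normalization between arrays and without 6TCF day 10 replicate 1, 6TCF day 10 replicate 2 or SGCF day 0 replicate 2.

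Lists of other lineages were mostly called at a share near that of all genes tested, 25.6%. The share called was 23.5% for skeletal muscle, 30% for cardiac, 22.7% for neuronal and 22.2% for neural progenitor, glial and neural crest genes. It was 43.8% for adipocyte genes and 16.7% for endoderm and liver genes. Of 17 skeletal muscle genes 3 were called lower and 1 higher, although their median was -0.98 and 9 were lower at an unadjusted p under 0.05. Under 6TCF 11 of the 17 rose, and under SGCF 2 did. That median was -0.34 without 6TCF day 10 replicate 2 and -1.41 without 6TCF day 10 replicate 1, and the members tested also varied. The calls hang on single arrays: without 6TCF day 10 replicate 1 there were 12 lower, with no normalization between arrays there were 11, and without 6TCF day 0 replicate 2, 6TCF day 10 replicate 2, SGCF day 0 replicate 2 or SGCF day 10 replicate 2 there was 1. The 2 arrays of 6TCF day 10 disagreed in Tnni1, which stands in the cardiac list and not in the skeletal muscle list. Tnni1, slow troponin I, was 6.62 on one and 8.49 on the other, against 5.92 and 5.98 at day 0, and its call was lost in 13 of 19 alternative fits. Chrna1, the muscle acetylcholine receptor subunit, was 5.48 and 5.25 and then 7.04 and 7.46 under 6TCF and 5.38 and 5.48 and then 6.20 and 5.67 under SGCF. Its difference of -1.38 ± 0.36 and that of the calcium-binding protein gene Casq2, -1.45 ± 0.40, were each lost in 4 alternative fits.

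Of 20 cardiac genes 3 were called higher and 3 lower. The lower ones, Tnni1, Gata5 and Nppa, were lost when single arrays were left out, with none lower without 6TCF day 0 replicate 2, 6TCF day 10 replicate 2 or SGCF day 10 replicate 2, 1 lower without 6TCF day 0 replicate 1, SGCF day 0 replicate 2 or SGCF day 10 replicate 1, and 5 lower without 6TCF day 10 replicate 1. Tbx5, a transcription factor of heart and forelimb, was 6.71 and 6.91 and then 6.40 and 6.40 under 6TCF and rose from 6.62 and 6.52 to 7.89 and 7.59 under SGCF (difference 1.58 ± 0.19, adjusted p = 0.000178, limma). Of 22 neuronal genes 2 were called higher and 3 lower, or 2 and 8 with no normalization between arrays. Gria1, a glutamate receptor subunit, rose from 4.64 and 4.64 to 9.47 and 9.63 under 6TCF and from 5.05 and 5.01 to 8.62 and 8.84 under SGCF. Stmn2, a microtubule regulator of axons, fell by 0.60 ± 0.13 under 6TCF and rose by 0.77 ± 0.13 under SGCF. Among 18 neural progenitor, glial and neural crest genes 2 were called in each direction. With no normalization between arrays they were none and 3, and 1 was higher without either 6TCF day 0 array, 6TCF day 10 replicate 1, SGCF day 0 replicate 2 or SGCF day 10 replicate 2. The lower count was 1 without 6TCF day 0 replicate 2.

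Of 16 adipocyte genes 5 were called higher and 2 lower, or 1 and 2 with no normalization between arrays, and 3 and 2 without any 1 of the 7 arrays other than SGCF day 0 replicate 1. Lpl, lipoprotein lipase, rose from 9.14 and 9.43 to 11.51 and 11.27 under 6TCF and was 9.57 and 9.79 and then 9.07 and 9.46 under SGCF (difference -2.53 ± 0.23, adjusted p = 3.2e-05, limma). Cd36, a fatty acid receptor that macrophages also carry, fell by 1.82 ± 0.20 under SGCF, and its change of 0.23 ± 0.20 under 6TCF was not called. Adipoq, the fat hormone adiponectin, was 4.56 and 4.64 and then 5.36 and 5.27 under 6TCF and rose from 4.55 and 4.73 to 6.36 and 6.97 under SGCF. Fasn, fatty acid synthase, fell by 1.47 ± 0.18 under 6TCF, and its change of -0.04 ± 0.18 under SGCF was not called. Of 12 endoderm and liver genes 2 were called lower and none higher, with 2 and 2 at an unadjusted p under 0.05 and 1 higher with an intensity trend in limma; they were the pioneer factor gene Foxa2 and the cytochrome gene Cyp2e1.

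Endothelial and mural markers gave 5 called higher and 2 lower of 15, or none and 2 with no normalization between arrays, and 3 and 2 without 6TCF day 0 replicate 2 or either 6TCF day 10 array. Kcnj8, a potassium channel of pericytes, rose from 6.05 and 6.05 to 10.04 and 9.84 under 6TCF and from 5.92 and 6.06 to 7.62 and 7.89 under SGCF (difference -2.13 ± 0.21, adjusted p = 6.34e-05, limma). Rgs5, another pericyte gene, was called higher, at 1.13 ± 0.33, and lost in 7 of 19 alternative fits. Of 11 cartilage and bone markers 2 were called higher and none lower, with 4 and none at an unadjusted p under 0.05 and 2 and none with an intensity trend in limma. They were Col11a1 and Col2a1, the main collagen of cartilage, which fell by 3.10 ± 0.14 under 6TCF and by 1.17 ± 0.14 under SGCF from a lower start.

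Fibroblast identity genes gave 3 called higher and 4 lower of 20. Dpt, the matrix protein dermatopontin, rose from 7.16 and 7.13 to 10.80 and 10.77 under 6TCF and from 9.09 and 9.67 to 11.31 and 11.55 under SGCF (difference -1.59 ± 0.25, adjusted p = 0.00126, limma). Fap, a surface protease of activated fibroblasts, was 8.26 and 8.16 and then 8.39 and 8.46 under 6TCF and rose from 8.34 and 8.83 to 10.27 and 10.39 under SGCF (difference 1.52 ± 0.21, adjusted p = 0.000551, limma). Pdgfrb, a receptor for platelet-derived growth factor, fell by 1.61 ± 0.17 under 6TCF, and its change of -0.28 ± 0.17 under SGCF was not called. Of 22 Hox genes, which record position along the body, 6 were called higher and 1 lower, or 2 and 1 with no normalization between arrays. Hoxa5 went from 8.83 and 8.69 to 7.87 and 7.95 under 6TCF and from 7.89 and 7.82 to 8.55 and 8.56 under SGCF (difference 1.55 ± 0.16, adjusted p = 7.57e-05, limma). Hoxa10 was the 1 called lower, at -0.96. Of 11 pluripotency and germ cell genes none was called by limma with or without an intensity trend, and 1 was higher at an unadjusted p under 0.05. From the list of Y-linked genes and Xist 4 genes were tested. None of the 4 was called either, by limma or with an intensity trend, and none had an unadjusted p under 0.05. In level, 1 of the 4 was called lower in SGCF at day 10 and none was called at day 0.

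The actin control and gene length moved with the comparison, and the Gapdh control moved nearly alike in both arms. The actin control signal at the 3′ end minus that at the 5′ end, a gap that widens with loss of 5′ sequence, rose from 0.34 to 1.04 under 6TCF and from 0.31 to 0.54 under SGCF (log2 means of 2 arrays), so the gap between the ends grew by 0.70 and 0.22. The same gap of the Gapdh control grew by 0.19 under 6TCF and 0.16 under SGCF. The genomic span of genes, from RefSeq, had a median of 38.4 kb among genes called higher and 16.7 kb among genes called lower, against 21.3 kb among all genes tested. For differences of at least 2-fold the medians were 54.6 kb and 18.7 kb. The part of the actin control and of gene length in the calls was not tested. Where a called gene had further probe sets, all of them shared the sign of the difference in 82.3% of genes called higher and 79.2% of genes called lower, against 63.4% among all genes tested.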

How the data were processed

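RNA of 12 mouse embryonic fibroblast samples, 2 for each of 2 chemical combinations at each of 3 time points, was labelled with biotin and put on Affymetrix arrays of 1 colour (Mouse Genome 430A 2.0), as the labels' protocols say. The deposited values are linear signal intensities, 1 per probe set, made by the authors before deposit. The submitters' processing notes name RMA, MAS5 and limma without version or role, so which of them made the intensities is not known here. There are no counts, and precision is limited by the number of arrays.

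Of 22690 probe sets 64 are controls, 20380 carry 1 gene symbol, 691 several and 1555 none, by the platform annotation. Symbols were looked up by Entrez number for 20351 probe sets in a RefSeq gene table, and 0 changed. The log2 of intensity + 16 was quantile normalised over 12 arrays, and for each of 12393 genes the probe set of highest mean was taken. The 10674 genes whose highest group mean was above the 25th percentile of all values (5.25) were kept. A gene could thus pass through the 1 group where it was high. A model with 6 group means was fitted with limma 3.58.1 in R 4.3.3 (6 residual and 5.75 prior degrees of freedom), and the contrast (SGCF day 10 minus day 0) minus (6TCF day 10 minus day 0) was tested with Benjamini-Hochberg adjustment over all genes tested at 0.05. Tables and figures were made with Python 3.11.15, pandas 2.3.3 and matplotlib 3.10.9. The scripts were tested on simulated data.

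The 35 gene lists (762 entries, 743 genes, 621 tested) and the members described were chosen with earlier results of these data known. By rule 122 genes could be named: among called genes of at least 2-fold difference with all 4 array differences of 1 arm above all 4 of the other, the 12 largest in each direction, the 5 largest with opposite changes in the arms and up to 4 per list. In a list without such genes, up to 2 called members were taken. Alternatives changed the pseudocount, the normalization, the filter, the choice of probe set, the arrays fitted, the variance trend, a block on replicate number, and left out 1 array each.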

Additional observations from a re-analysis of the deposited data

Results flagged for a closer look

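The change by day 10 differed between the arms, by the interaction test, in 2735 genes. In the 5 genes called in opposite directions with the largest smaller change, the log2 difference was -4.75 for Lgr5, -3.70 for Serpinb1a, -4.18 for Pkia, -2.78 for Krt19 and -3.84 for Crip1, each a rise under 6TCF and a fall under SGCF in limma.

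The actin control probe sets, which enter no comparison of genes, showed a change in the 6TCF arm. The 3′ signal minus the 5′ signal grew by 0.70 on the log2 scale from day 0 to day 10 of 6TCF, against 0.22 under SGCF. The same measure of the Gapdh control grew by 0.19 and 0.16. The part of the actin change in the differences was not tested.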

How the results depend on the processing

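Of the 122 genes chosen by the rule, 112 were tested under all 19 alternatives; the other 10 fell below the filter at the 50th percentile and were tested under 18. No direction turned under any alternative in which a gene was tested, and 105 genes stayed called in each of those. The count of 2735 genes ranged from 1456 to 3822 with 1 array left out. With no normalization between arrays 1944 genes were called, 343 higher (17.6% against 47.9%) and 1601 lower, and the median of all genes moved from 0.01 to -0.22. Counts between the arms at 1 day depend on setting the arms to one scale: for day 0 they were 7028 with no normalization between arrays and 8892 with quantile normalization within each arm, and 389 to 2998 with 1 array left out. For day 10 they were 8665 and 8541, and 1520 to 3587. Without a shared scale the brightness of the arrays, which differs between the arms, enters those counts in full. With no normalization the medians of 10 lists turned below 0: the TGF-beta, BMP and collagen chain lists to -0.02, NRF2 and glycolysis to -0.05, pluripotency to -0.10, endothelial and mural to -0.13, fibroblast identity to -0.19, insulin-like growth factor to -0.33, and cartilage and bone to -0.0045. Of lists whose median was within 0.1 of 0, the sign also turned under median scaling for insulin-like growth factor (-0.12) and endoderm (0.03). At the 50th percentile filter it turned for proteoglycans (0.02) and, with 8 genes tested, for neural progenitors (0.23). Endoderm had 1 gene tested at that filter, so its 0.92 is the value of that gene. The sign turned as well for endoderm with probe sets averaged (0.18, 6 genes tested) or no filter (0.08). For cardiac genes it turned with only the arrays of days 0 and 10 (0.04). The replicate numbers were not shown to pair arrays: deviations of same-numbered arrays correlated at -0.204 to 0.11 over 6 pairs of groups, and 1 was over 0.1. With the replicate block 2534 genes were called, and Tnni1 was the 1 named gene that lost its call. With 2 arrays a group, dim genes near the filter are least certain.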

Other observations

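At day 5 the groups of genes had separated to different degrees. The summed intensity of the 23 macrophage markers was 1356 and 1567 at day 5 of 6TCF. It was 1364 and 1125 at day 5 of SGCF, so the sums of the arms overlapped then. From the unequal starts, the median difference of these markers was already -1.11 by day 5, against -1.58 by day 10. The sum was higher at day 10 than at day 5 under 6TCF (2563 and 2397) and not under SGCF (1028 and 1133). Csf1r stood apart from that sum: it was 8.25 and 8.34 at day 5 of 6TCF and 6.56 and 6.61 at day 5 of SGCF, about its level at day 10 in each arm. Lgr5 was 7.93 and 8.32 at day 5 of 6TCF and 4.84 and 5.00 at day 5 of SGCF. Both changes were thus present by then, and the SGCF arrays were lower at day 5 than at day 10.

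Cell cycle genes lay further apart between the arms at day 10 than at day 5. Their median difference was -0.45 by day 5 and -1.44 by day 10. Their summed intensity at day 5 was 25083 and 24689 under 6TCF and 23137 and 23799 under SGCF, and at day 10 it was 19712 and 20408 against 12277 and 9686. The difference between the arms by day 5 was -0.45 ± 0.25 for Birc5 and -0.65 ± 0.23 for Cdk1, neither called by limma. Collagen crosslinking genes had overlapping sums at day 5, 14036 and 14184 under 6TCF and 13563 and 14564 under SGCF, and differed at day 10, when the sums were 14176 and 14651 under 6TCF and 21749 and 21531 under SGCF. Mesothelial genes were apart at every day, with 11095 and 10599 at day 5 of 6TCF and 4936 and 5908 at day 5 of SGCF. These sums are over intensities after quantile normalization, and neither they nor the list medians by day 5 were tested.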
